A study of Mus musculus with 2 samples.

Results

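The genes of respiratory complexes II to V, with cytochrome c, were followed in mouse embryonic fibroblasts given celastrol. Members were the genes whose symbol in the platform annotation marks them as succinate dehydrogenase, cytochrome bc1, cytochrome c, cytochrome c oxidase or ATP synthase genes, including named assembly factors, and which had a probe set naming that gene alone. This gave 63 of the 19938 genes on the array: 8 of complex II, 12 of complex III, cytochrome c itself (Cycs), 25 of complex IV and 17 of complex V. The rule uses the gene symbol and no measured value, though it was set with earlier results of these data known. Where a gene had several probe sets, the one with the highest mean of both arrays stands for it.

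The respiratory chain sits in the inner mitochondrial membrane. Complex II passes electrons from succinate to ubiquinone, complex III passes them on to cytochrome c, and complex IV passes them from cytochrome c to oxygen. Complexes III and IV pump protons, and complex V lets them flow back to make ATP. Nearly all subunits of these complexes are nuclear genes whose proteins are imported, and dedicated assembly factors insert haem, copper, flavin and iron-sulphur clusters.

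The celastrol culture received 250 nM celastrol, a triterpenoid from the thunder god vine, and the DMSO culture received the solvent alone. Both groups were fibroblasts infected with a LacZ adenovirus, kept for 7 h in DMEM with 1% serum, and each is represented by 1 array. No untreated or uninfected culture is part of the comparison, and neither labels nor files state the strain, the number of embryos or the passage. With 1 array per group there is no replicate, so every difference below is a description of these 2 arrays with no test, and effects of treatment, culture or array cannot be told apart.

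Values are RMA values on a log2 scale, and each difference is celastrol minus DMSO. A gene counts as detected where at least 1 array exceeds 5.73, the level that 95% of the values from 1210 olfactory and vomeronasal receptor probe sets stay under, and 13899 genes passed. The central 95% of those receptor probe sets differed by between -0.42 and 0.41, which gives the scatter of dim probe sets between the arrays. Of 10 fibroblast markers 9 were detected in both arrays, Lum being the exception at 4.04 with celastrol and 4.15 with DMSO. Of the defining markers of other cells, Ptprc (5.71 with celastrol and 5.50 with DMSO), Pecam1 (5.69 with celastrol and 5.32 with DMSO) and Epcam (5.30 with celastrol and 5.15 with DMSO) stayed under the limit. Others were detected, among them Cdh1, Krt8 and Krt18 of 4 epithelial markers, Cdh5 of 4 endothelial ones (in the celastrol array only) and Fabp4 of 4 adipocyte ones. Fabp4 stood at 7.94 with celastrol and 7.54 with DMSO, and the linear values of the adipocyte list summed to 339 with celastrol and 269.9 with DMSO. Among 6 macrophage and leukocyte markers 3 were detected in both arrays, and the linear values of all 6 summed to 704.0 with celastrol and 404.0 with DMSO, mostly through the lysosomal gene Cd68. Muscle markers, which bear on the muscle forms of complex IV below, were all detected, 4 of 5 in both arrays. Their linear values summed to 889 with celastrol and 624 with DMSO, and the rise came through Tnnt2 (0.87). The others gave 0.32 (Des), 0.08 (Actn2), 0.06 (Myh6) and -0.26 (Ckm). The part of these markers in the results was not tested.

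Most members were lower in the celastrol culture, by small amounts. Of the 63 members 55 were below 0, and of the 61 detected ones also 55, where 51.9% of all detected genes were below 0. The other 6 detected members were above 0, where 48.1% of all detected genes were. The detected members had a median difference of -0.24 and quartiles at -0.37 and -0.09, against a median of -0.01 and quartiles at -0.22 and 0.19 for all detected genes. A difference of at least 1.2-fold (0.26 on the log2 scale) downward was seen in 29 of 61, where 20.5% of all detected genes passed that limit. Upward, 1 of 61 passed it, where 18.9% of all detected genes did.

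Larger changes were seen in fewer members. At least 1.5-fold lower were 6 of the 61 detected members, where 4.68% of detected genes passed that limit. The 6 were Uqcrh, Uqcr11, Uqcc2, Sdhaf4, Cox19 and Cox6b1. No member was 1.5-fold higher, where 6.19% of detected genes were, and none was 2-fold lower or 2-fold higher, where 0.662% and 1.89% of detected genes were. Of the detected members 9 lay below the lower end of the receptor range, where 10.5% of all detected genes did, and 1 above its upper end, where 11.2% did. For most members a single difference thus does not stand out from that scatter, which was measured on dimmer probe sets. Without the 2 members that exceeded the limit in 1 array only (Cox8b and Cox8c), 54 of 59 were below 0 with a median of -0.24.

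Complex II, succinate dehydrogenase, is the only complex whose subunits are all nuclear, and it also works in the citrate cycle. All 8 of its genes were lower with celastrol, where 51.9% of all detected genes were, and 7 passed the 1.2-fold limit, where 20.5% did. The 8 genes had a median of -0.38, the lowest of the 4 complexes, though the difference between complexes was not tested. Sdha, the flavoprotein that oxidises succinate, stood at 10.34 with celastrol and 10.70 with DMSO, a difference of -0.36. Sdhb, the iron-sulphur subunit, stood at 10.002 with celastrol and 10.41 with DMSO (-0.41). Sdhc, a membrane anchor, stood at 10.15 with celastrol and 10.55 with DMSO (-0.41). The other anchor, which shares the ubiquinone site, is Sdhd, and its difference was the lowest of the subunits, with 10.21 with celastrol and 10.72 with DMSO (-0.50). The differences of the 4 subunits thus spanned no more than -0.50 to -0.36.

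The assembly factors of complex II were lower as well. Sdhaf1, which helps insert iron-sulphur clusters into Sdhb, stood at 7.44 with celastrol and 7.80 with DMSO (-0.36). Its partner Sdhaf3 stood at 7.42 with celastrol and 7.75 with DMSO (-0.33). Sdhaf2, needed to attach flavin to Sdha, was the member of the complex nearest to 0, at 10.05 with celastrol and 10.29 with DMSO (-0.24). For Sdhaf4, a chaperone of flavinated Sdha, the probe set with the higher mean gave 6.61 with celastrol and 7.28 with DMSO (-0.67). Its other probe set, which is dimmer and named from a cDNA clone, gave 0.18, so the direction of Sdhaf4 rests on the choice of probe set.

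**Figure D1:**
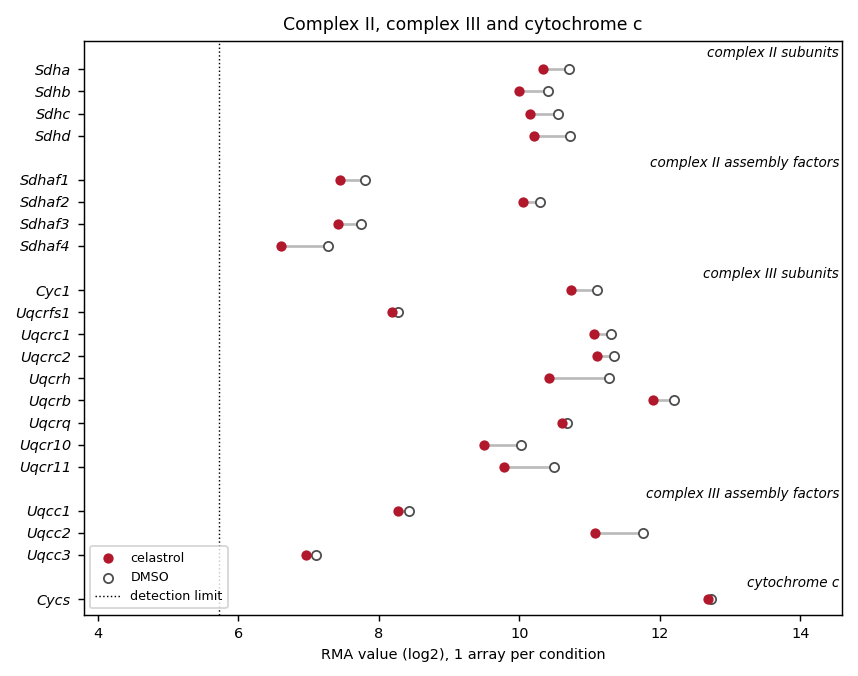
RMA values (log2) of complex II, complex III and cytochrome c genes, with celastrol as filled circles, DMSO as open circles and the detection limit of 5.73 as a dotted line; 1 array per condition, so there are no error bars. In all 21 genes the celastrol value lies left of the DMSO value, with the widest gap in Uqcrh and hardly any in Cycs.

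Complex III, the cytochrome bc1 complex, had 12 members, all detected and all lower with celastrol, where 51.9% of all detected genes were. Of the 12 members 6 passed the 1.2-fold limit, where 20.5% of all detected genes did, and the median of the complex was -0.27. The widest differences were among its small subunits. Uqcrh, the hinge protein that helps cytochrome c1 meet cytochrome c, stood at 10.42 with celastrol and 11.27 with DMSO, a difference of -0.86 or 1.81-fold, the lowest of all members. The gene table lists 2 pseudogenes named after Uqcrh, and how far they share its probes was not tested. Uqcr11 stood at 9.78 with celastrol and 10.50 with DMSO (-0.72), and its second probe set gave -0.45. Uqcr10 stood at 9.49 with celastrol and 10.02 with DMSO (-0.53). The other small subunits differed less. Uqcrb, which contributes to ubiquinone binding, gave -0.29 by the chosen probe set and between -0.36 and -0.27 by its 3 probe sets. Uqcrq was nearest to 0 of all complex III genes, at 10.61 with celastrol and 10.69 with DMSO (-0.08).

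The subunits that carry electrons or form the core of complex III lay between these extremes. Cyc1, cytochrome c1, stood at 10.74 with celastrol and 11.11 with DMSO (-0.37). Uqcrfs1, the Rieske iron-sulphur protein, stood at 8.18 with celastrol and 8.27 with DMSO (-0.09). The 2 core proteins gave nearly the same difference, both -0.24, for Uqcrc1 and for Uqcrc2. Among the factors needed for the synthesis and assembly of cytochrome b, Uqcc2 stood at 11.08 with celastrol and 11.77 with DMSO (-0.68), and its other probe set gave -0.50. Its partner Uqcc1 gave -0.16, and Uqcc3 stood at 6.96 with celastrol and 7.10 with DMSO (-0.14).

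Cycs, the soluble carrier between complexes III and IV that also activates caspases when released, stood at 12.69 with celastrol and 12.73 with DMSO (-0.05). Its other 2 probe sets gave -0.01 and, for one near the detection limit, 0.22. The gene table lists 3 Cycs pseudogenes.

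Complex IV, cytochrome c oxidase, was mixed. Of its 25 members 23 were detected, and 17 of these were below 0, where 51.9% of all detected genes were. Past the 1.2-fold limit downward were 6 (26.1%), near the 20.5% of all detected genes, and the median was -0.08. Of the 6 on the other side of 0, Cox5a differed by less than 0.01. Its classes of gene had different medians. The 9 subunits of the widespread form had a median of -0.21 with 8 lower, the 9 assembly factors a median of -0.08 with 7 lower, and the 5 detected forms known from other tissues a median of 0.02 with 2 lower. These classes were not tested against each other, and Cox7a1, Cox8b and Cox8c among the forms from other tissues lie at the detection limit.

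Among the widespread subunits, Cox6b1, which lies at the outer face and binds near cytochrome c, had the lowest difference, with 10.45 with celastrol and 11.09 with DMSO (-0.64). Cox7a2 stood at 10.71 with celastrol and 11.07 with DMSO (-0.36). Cox7b gave 12.66 with celastrol and 12.97 with DMSO (-0.31), and its second probe set -0.44. Cox5b, a zinc-binding subunit, gave -0.31 and, by its second probe set, -0.36. The remaining widespread subunits differed by less than 1.2-fold, with Cox6a1 at -0.21, Cox6c at -0.19 and Cox8a at -0.14. Cox4i1, which binds the adenine nucleotides that regulate the enzyme, stood at 11.16 with celastrol and 11.23 with DMSO (-0.07). Its binding partner Cox5a stood at 10.86 in both arrays.

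The other forms of these subunits, which replace the widespread ones in muscle, lung or testis, were higher in 3 and lower in 2 of the 5 detected cases, and only Cox6a2 lay outside the receptor range. Cox6a2, the heart and skeletal muscle form, had the highest difference of all members, 0.44, with 7.80 with celastrol and 7.36 with DMSO, while the widespread Cox6a1 stood at 11.22 with celastrol and 11.43 with DMSO. The summed muscle markers were also higher with celastrol, through the single gene Tnnt2, while Ckm was lower, as given above. The part of muscle markers in the Cox6a2 value was not tested. Cox8b, another muscle form, crossed the detection limit with 5.88 with celastrol and 5.66 with DMSO (0.22), whereas Cox8a stood at 12.28 with celastrol and 12.42 with DMSO. Cox4i2, the form known from lung and from hypoxia, stood at 6.65 with celastrol and 6.63 with DMSO (0.02). Cox7a1, a muscle form, stood at 5.80 with celastrol and 5.87 with DMSO (-0.07), and the testis form Cox8c at 5.70 with celastrol and 5.74 with DMSO (-0.04), both at the limit. The testis forms Cox6b2 (5.71 with celastrol and 5.57 with DMSO) and Cox7b2 (4.18 with celastrol and 4.08 with DMSO) were not detected.

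The 9 assembly factors of complex IV ran from -0.65 to 0.19, with quartiles at -0.14 and -0.01. Cox19, which takes part in copper handling in the intermembrane space, stood at 7.57 with celastrol and 8.23 with DMSO (-0.65). Cox18, which moves the tail of the mitochondrially encoded COX2 through the membrane, stood at 10.67 with celastrol and 11.07 with DMSO (-0.40). The enzymes and chaperones for haem A and copper differed little, with Cox10 at -0.06, Cox15 at -0.10, Cox11 at -0.01 and the copper chaperone Cox17 at 0.09. Cox14 and Cox20, which attend newly made COX1 and COX2, gave -0.14 and -0.08. Cox7a2l, which resembles a subunit but links complexes III and IV into supercomplexes, was higher, at 8.87 with celastrol and 8.68 with DMSO (0.19), and its second probe set gave 0.22. The related subunit gene Cox7a2 had a difference of opposite sign, as given above.

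Cox7c and Cox16 are not among the members because each shares its probe sets with a second gene name. The 3 probe sets naming Cox7c with a predicted gene gave differences between -0.21 and -0.18, and the 1 naming Cox16 with a predicted gene gave -0.34.

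**Figure D2:**
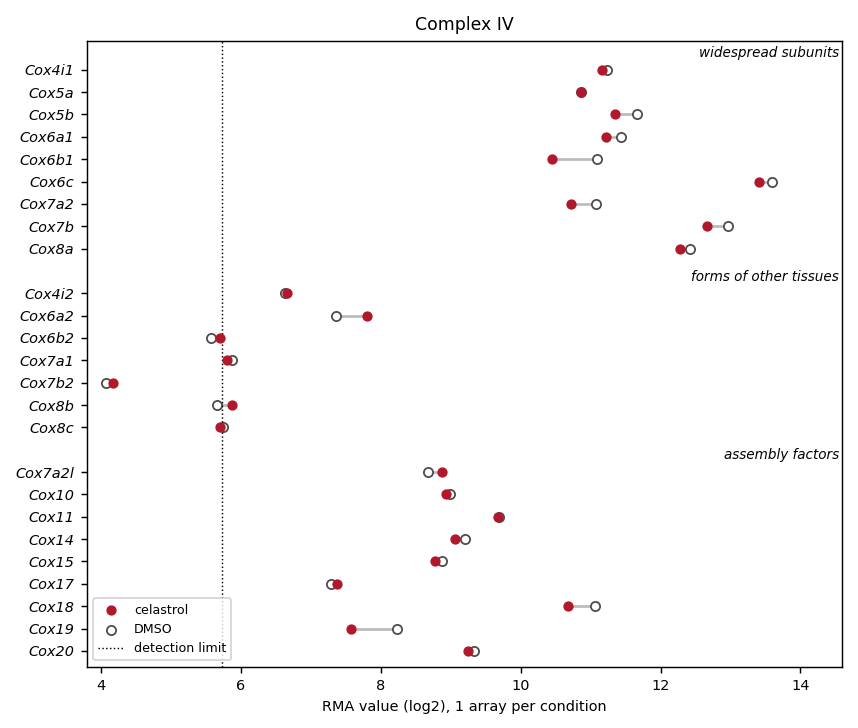
RMA values (log2) of the 25 complex IV members by class, with celastrol as filled circles, DMSO as open circles and the detection limit of 5.73 as a dotted line; 1 array per condition, so there are no error bars. The widespread subunits lie to the left with celastrol or coincide, while Cox6a2 and Cox8b lie to the right and several forms of other tissues sit at the limit.

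Complex V, the ATP synthase, had 17 members, all detected and all lower with celastrol, where 51.9% of all detected genes were. Past the 1.2-fold limit were 10 (58.8%), where 20.5% of all detected genes were. The differences ran from -0.46 to -0.02 around a median of -0.28. Its parts differed in extent. The 3 genes for subunit c, which forms the rotating ring in the membrane, were close together. Atp5g1 stood at 12.75 with celastrol and 13.10 with DMSO (-0.35). Atp5g2 stood at 12.42 with celastrol and 12.82 with DMSO (-0.40), and Atp5g3 stood at 11.67 with celastrol and 12.07 with DMSO (-0.40). These genes encode the same mature protein behind different import sequences, and the 3 probe sets of Atp5g2 spanned only -0.42 to -0.39.

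The catalytic head was nearer to 0, with a median of -0.16 over 5 genes. Atp5b, the catalytic beta subunit, had the smallest difference of the complex at 13.37 with celastrol and 13.39 with DMSO (-0.02). Atp5a1, its alpha partner, gave -0.13, and the central stalk genes Atp5c1, Atp5d and Atp5e gave -0.31, -0.16 and -0.28. The peripheral stalk, which holds the head still, had a median of -0.17 over 4 genes. Atp5pb (subunit b) stood at 11.22 with celastrol and 11.33 with DMSO (-0.10), and Atp5h (subunit d) at 11.52 with celastrol and 11.65 with DMSO (-0.12). Atp5j (factor 6) and Atp5o, which encodes the oligomycin sensitivity protein, gave -0.21 and -0.28.

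The small subunits of the membrane part had a median of -0.36 over 5 genes, all lower. Atp5k (subunit e), which helps pair the enzyme into dimers, had the lowest difference of complex V, with 7.85 with celastrol and 8.31 with DMSO (-0.46), and the gene table lists 4 pseudogenes named after it. Atp5mpl, the small proteolipid, gave -0.39. Atp5l (subunit g) gave -0.36 by the chosen probe set and between -0.47 and -0.36 by its 6 probe sets. The gene table lists 2 pseudogenes named after Atp5l. Atp5md and Atp5j2 (subunit f) gave -0.27 and -0.24. These differences between parts of the enzyme were not tested.

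**Figure D3:**
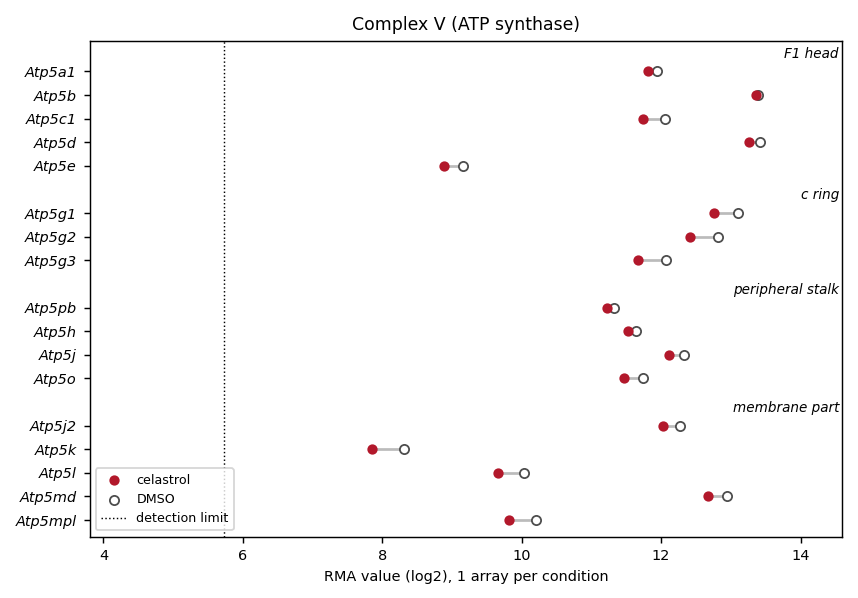
RMA values (log2) of the 17 complex V members by part of the enzyme, with celastrol as filled circles, DMSO as open circles and the detection limit of 5.73 as a dotted line; 1 array per condition, so there are no error bars. Every celastrol value lies left of its DMSO value, most clearly in the c ring and the membrane part and hardly at all in Atp5b.

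Subunit and assembly genes can be set side by side over all complexes. The 39 subunit genes had a median of -0.29 with 38 lower, and the 16 assembly factors a median of -0.15 with 14 lower. Downward differences of at least 1.2-fold were seen in 23 of the subunit genes (59.0%) and 6 of the assembly factors (37.5%). Of all detected genes 51.9% were lower, and 20.5% passed that limit. The assembly factors ran from -0.68 (Uqcc2) to 0.19 (Cox7a2l). The difference between these classes was not tested.

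Repeat probe sets give a check within the arrays, though not between cultures. Whether some of them lie at pseudogenes could not be examined, so their agreement may not be independent. For 15 members more than 1 probe set named the gene alone, and in 13 of these all probe sets had the same sign. The exceptions among the 15 members were Sdhaf4 and Cycs. Pseudogenes named after the gene were listed for 7 members. Without those genes 24 of 54 detected members were at least 1.2-fold lower, where 20.5% of all detected genes were. Any probe sets at pseudogenes without such a name would remain among the 54.

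**Figure D4:**
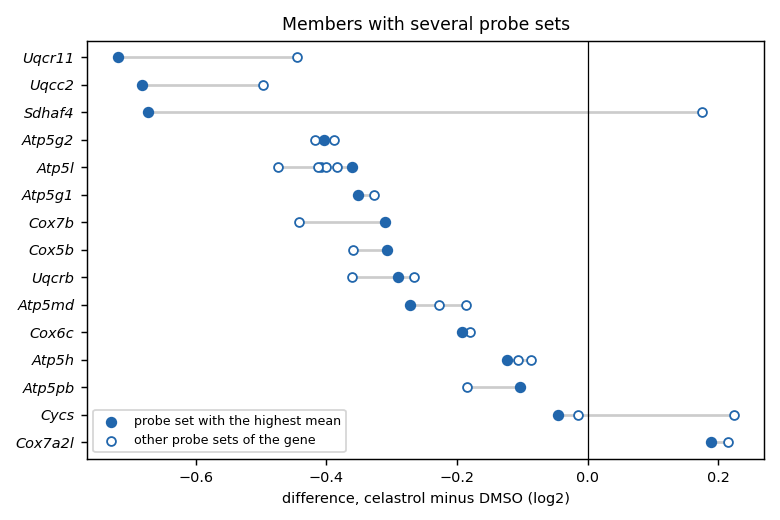
Difference celastrol minus DMSO (log2) for each probe set of the 15 members with several, the chosen one filled and the others open, joined by a line per gene. Probe sets of 13 genes fall on the same side of 0, while those of Sdhaf4 and Cycs fall on both sides.

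The members are bright on these arrays, so they were also set beside other genes of like brightness. Among 26 members with a mean between 10 and 12 the median was -0.34 with 25 lower, against a median of -0.01 and 51.6% lower among the 2221 other genes of that brightness. Among 12 members above 12 the median was -0.23 and all 12 were lower, against -0.03 and 57.9% of 323 other genes. Members with a mean between 8 and 10 had a median of -0.12 with 11 of 12 lower, against -0.06 and 56.4% of 4992 others. In the dimmest band, up to 8, 6 of 10 members were lower with a median of -0.11, against 0.01 and 48.3% of 5963 others. Cytosolic ribosomal protein genes, a group chosen after the data were seen and not matched for brightness, had a median of -0.06. Of these 42 of 55 were lower and 5 (9.1%) by at least 1.2-fold, where 51.9% and 20.5% of all detected genes were.

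Promoters of respiratory genes often hold binding motifs of NRF1 and of ETS factors such as GABP, and most members were lower together, so their start regions were searched. RefSeq windows of GRCm38.p6, from 250 bases before to 50 after each start, were found for 49 of the 63 members. The NRF1 core (GCGC, then A and any base N, then GCGC), on either strand, was in 13 of these 49 genes (26.5%), in 5.19% of the 27025 genes with a window and in 10.3% of the 10937 other detected genes. The ETS core CCGGAAG, on either strand, was in 20 of 49 (40.8%), in 9.93% of all genes and in 17.7% of other detected genes. Detected members with the NRF1 core had a median difference of -0.36 (13 genes) and those without it -0.19 (34 genes). For other detected genes the medians were -0.06 with the core (1122 genes) and -0.01 without it (9815 genes). With the ETS core the members' median was -0.28 (20 genes), and without it -0.24 (27 genes). Other detected genes had medians of -0.02 with the ETS core (1940 genes) and -0.01 without it (8997 genes). Windows of the members had a median GC content of 58.7%, and those of other detected genes 60.7%. Within the members it was 61.0% in the 28 genes with either core and 55.0% in the 21 with neither, so motif and base composition went together, and their part in the medians was not tested. A motif match is a description of letters and not a binding site.

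Windows of 5 genes are printed, from complex II genes that were lower together, from the member with the lowest difference and from a member that was higher. Each reads in the direction of its gene, and capitals mark the motif letters. Sdha, at chr13:74350191-74350490 on the minus strand, holds 3 NRF1 cores. Sdhb, at chr4:140961021-140961320 on the plus strand, holds 1 ETS core, and Sdhd, at chr9:50603800-50604099 on the minus strand, holds 1 of each. Uqcrh, at chr4:116075021-116075320 on the minus strand, holds 1 ETS core. Cox7a2l, at chr17:83514284-83514583 on the minus strand, holds neither. The 5 genes were picked and do not stand for the members. Cox19 (-0.65) and Uqcr10 (-0.53), for example, were lower and hold neither core. Detected members with either core had a median of -0.32 (28 genes) and those with neither -0.14 (19 genes). Other detected genes had medians of -0.04 with either core (2809 genes) and -0.01 with neither (8128 genes).
Sdha: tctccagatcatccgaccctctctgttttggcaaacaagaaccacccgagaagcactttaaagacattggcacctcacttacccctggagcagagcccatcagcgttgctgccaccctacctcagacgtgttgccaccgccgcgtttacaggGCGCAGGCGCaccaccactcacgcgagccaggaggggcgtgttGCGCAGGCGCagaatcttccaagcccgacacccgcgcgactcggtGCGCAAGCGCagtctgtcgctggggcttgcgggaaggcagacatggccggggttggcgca
Sdhb: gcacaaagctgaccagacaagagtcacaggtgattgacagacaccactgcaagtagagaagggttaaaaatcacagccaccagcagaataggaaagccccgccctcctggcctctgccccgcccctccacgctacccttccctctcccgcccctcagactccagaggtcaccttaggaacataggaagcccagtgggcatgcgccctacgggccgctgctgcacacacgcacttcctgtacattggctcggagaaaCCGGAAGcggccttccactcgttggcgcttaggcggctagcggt
Sdhd: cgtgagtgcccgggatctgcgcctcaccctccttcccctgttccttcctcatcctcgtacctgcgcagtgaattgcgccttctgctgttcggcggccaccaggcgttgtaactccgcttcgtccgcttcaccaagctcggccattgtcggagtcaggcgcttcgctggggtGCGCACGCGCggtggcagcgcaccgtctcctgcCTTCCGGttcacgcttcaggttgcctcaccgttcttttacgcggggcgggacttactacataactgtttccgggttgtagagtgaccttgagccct
Uqcrh: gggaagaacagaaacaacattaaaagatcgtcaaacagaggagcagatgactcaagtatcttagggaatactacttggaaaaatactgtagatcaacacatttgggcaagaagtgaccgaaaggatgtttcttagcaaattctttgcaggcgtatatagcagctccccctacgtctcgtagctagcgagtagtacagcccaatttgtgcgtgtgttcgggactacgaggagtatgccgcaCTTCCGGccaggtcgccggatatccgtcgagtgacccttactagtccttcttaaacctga
Cox7a2l: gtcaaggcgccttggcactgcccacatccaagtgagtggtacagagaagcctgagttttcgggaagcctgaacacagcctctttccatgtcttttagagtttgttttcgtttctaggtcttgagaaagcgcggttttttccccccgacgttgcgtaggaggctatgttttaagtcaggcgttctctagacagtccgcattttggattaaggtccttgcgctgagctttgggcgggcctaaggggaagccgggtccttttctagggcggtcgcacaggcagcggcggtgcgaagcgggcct

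Other genes of the pathway give the setting of these values. Complex I subunits, which feed electrons from NADH into the chain, were lower in 33 of 34 cases, with 21 past the 1.2-fold limit, and had a median of -0.31. The lowest were Ndufa3 (-0.71) and Ndufb7 (-0.60), and the highest Ndufs1 (-0.06) and Ndufab1 (0.00), which doubles as the mitochondrial acyl carrier protein. The 2 mitochondrially encoded genes with a probe set of their own, ND3 of complex I and COX2 of complex IV, gave -0.24 and -0.12. Mitochondrial ribosomal proteins, which make the encoded subunits, had a median of -0.24 with 60 of 77 lower and 32 by at least 1.2-fold, from Mrpl34 (-0.80) and Mrpl42 (-0.67) to Mrpl13 (0.32) and Mrps6 (1.16). The share below 0 was thus 77.9% there, 97.1% in complex I and 90.2% in complexes II to V, with no test between them. Of all detected genes 51.9% were below 0, and 20.5% were at least 1.2-fold lower.

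Factors of complexes II to V outside the member rule were less uniform. Of 24 such genes, all detected, 17 were lower, 10 of these and 3 of the higher ones passed the 1.2-fold limit, and the median was -0.25. Of all detected genes 51.9% were lower, 20.5% passed the limit downward and 18.9% upward. Cmc2, a small protein of complex IV biogenesis, and Atpaf1, a chaperone of the ATP synthase head, were lowest at -0.65 and -0.55. Lrpprc, which stabilises mitochondrial messenger RNAs, and Coa4, a complex IV factor, were highest, both at 0.27. Enzymes of the citrate cycle and pyruvate dehydrogenase had a median of -0.20 with 14 of 17 lower and 5 (29.4%) by at least 1.2-fold. They ran from Suclg2 (-0.64) and Ogdh (-0.34) to Pdhb (0.12) and Pcx (0.13). Carriers and porins had a median of -0.13 over 6 genes, from the nucleotide exchanger Slc25a4 (-0.37) and Vdac1 (-0.23) to Slc25a3 (0.02) and Vdac2 (0.28).

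Genes for regulators of respiratory gene expression went both ways, with a median of 0.12. Of 13 genes 9 were above 0, where 48.1% of all detected genes were. Past the 1.2-fold limit were 5 upward and 3 downward, where 18.9% and 20.5% of all detected genes were. Ppargc1a, the coactivator PGC1-alpha, stood at 9.73 with celastrol and 8.27 with DMSO (1.46). Gabpb1 and Gabpa, the partners of the ETS factor GABP, gave 0.61 and 0.51, and Tfam, which packages and transcribes mitochondrial DNA, gave 0.49. The remaining gene past the limit upward, Tfb2m, gave 0.44. Polrmt, the mitochondrial RNA polymerase, gave -0.75, Pprc1, a PGC1 relative, -0.39, and Tfb1m, a methyltransferase of mitochondrial ribosomal RNA, -0.32. Nrf1 and Esrra, whose products bind promoters of respiratory genes, gave 0.15 and 0.03. The regulators were not tested against the members.

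**Figure D5:**
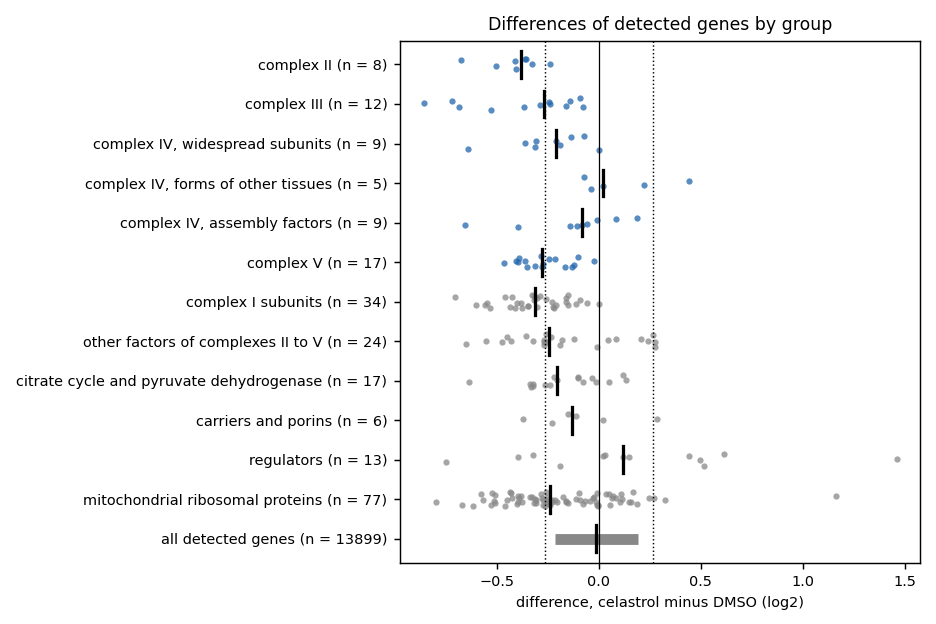
Difference celastrol minus DMSO (log2) of each detected gene, by group, with members in blue, other pathway genes in grey, group medians as black ticks, 1.2-fold limits dotted, and the range between quartiles of all detected genes as a grey bar. Medians of complexes II, III and V lie left of the bar of all genes. So do those of complex I subunits, of other factors of complexes II to V and of mitochondrial ribosomal proteins. The medians of the complex IV forms from other tissues and of the regulators lie at or right of 0.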

How the data were processed

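RNA of each condition was hybridised to 1 Affymetrix mouse array of whole-transcript design. The deposited log2 values were made by the authors with RMA (background correction, quantile normalization and probe set summary), per the submitters' processing notes; these name neither its version nor its settings nor any further arrays normalized together. That the scale is log2 follows from the range of the values. Differences of dim probe sets are usually understated by RMA.

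Of 35556 probe sets, GEO's platform annotation named 1 gene for 21789, several for 1621 and none for 12146, and only the first entered. All 63 members matched the GRCm38.p6 gene table, used for pseudogene names and promoters. Members and lists were chosen with earlier results of these data known, as were the fold limits. Full values go to complex II, Cycs, isoforms and the 3 lowest and 3 highest genes of each other complex; 2 lowest and 2 highest genes are named per pathway list, and further members by their difference. No test was possible with 1 array per group. Depth has no meaning for arrays; their number limits the precision. Alternatives were the mean of probe sets, 3 scalings (quantile, median, lowess with fraction 0.3), 3 detection filters, other fold limits, the mean and subunits only. The summary was tested on simulated data. Computation used pandas 2.3.3, numpy 2.4.6 and statsmodels 0.14.6 under Python 3.11.15.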

Additional observations from a re-analysis of the deposited data

How the results depend on the processing

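No paired analysis was possible because each condition had 1 array, and no replicate could be left out. A value was taken as moved where it shifted by more than 0.10, the median disagreement between probe sets of 1 gene, and a count where it changed by more than 1.5 times. Of 146 recalculated group medians and counts 140 stayed within these limits, 6 moved and 0 reversed. Over all alternatives the members' median ran from -0.29 to -0.22, that of complex II from -0.41 to -0.35, of complex III from -0.37 to -0.24, and of complex V from -0.28 to -0.25. That of complex IV moved to -0.21 with structural subunits only. With the detection limit at the median of all probe sets, the forms of complex IV from other tissues moved to a median of 0.23. At 1.5-fold 6 members were lower and 0 higher, and at 2-fold 0 in either direction, by construction. Scaling, probe set and filter settings left between 26 and 29 members at least 1.2-fold lower. Over all genes counted under these settings the share at least 1.2-fold lower ran from 16.7% to 23.1%. Of 437 recalculated single differences 435 stayed within 0.10 and none past 1.2-fold reversed. Many of these could hardly move, by construction. Detection filters leave a single difference unchanged, and also the median of a group whose genes all pass. Median scaling subtracts the same -0.01 from every difference, and the mean of probe sets can change only the 15 members with several. Sdhaf4 became -0.25 and Uqcr11 -0.58 with the mean of the probe sets. Values within 0.10 of 0 changed sign in 5 members (Cycs, Atp5b, Cox5a, Cox10 and Cox11). The leave-outs of the 2 members above the limit in 1 array and of genes with named pseudogenes were chosen after seeing the data.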
